A study of Mus musculus with 9 samples.

Results

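The 36 genes described here encode the enzymes that build, lengthen, desaturate and activate fatty acids and pass them into glycerolipids. They were taken by gene name from a fixed list in 7 steps, which run over acetyl-CoA supply, cytosolic synthesis, mitochondrial synthesis, elongation, desaturation, activation and glycerolipid entry. Of 55401 genes in the deposited count table, 36 are members, 35 had a count in some library and 34 passed the filter on low counts, together with 18092 genes in all. RNA was sequenced from HEI-OC1 cells, an immortalised line made from the mouse organ of Corti, where the cochlea's sensory hair cells sit. There were 3 groups with 3 libraries each. Pretreated H2O2 cells were first incubated with a nanoreactor that joins superoxide dismutase, catalase and human serum albumin through a diselenide crosslinker, and were then exposed to hydrogen peroxide (H2O2). H2O2 cells received the peroxide without the nanoreactor, and control cells were grown untreated. The nanoreactor is spelled HCS@Se, SCGS and HSC@Se in the labels, which were taken as 1 agent; no dose or time is given. No group received the nanoreactor alone, so an action of the agent that does not need H2O2 and one that does cannot be told apart.

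Fatty acid synthesis starts from citrate, which leaves the mitochondrion and is split into acetyl-CoA in the cytosol. Acetyl-CoA carboxylase turns acetyl-CoA into malonyl-CoA, and fatty acid synthase joins these units into palmitate. Elongases and desaturases of the endoplasmic reticulum then set chain length and double bonds, and acyl-CoA synthetases activate the products for phospholipids and triglycerides. Many of these genes are known targets of the sterol regulatory element-binding proteins (SREBPs), transcription factors held in the endoplasmic reticulum by Scap and the Insig proteins.

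Libraries held 55395418 to 67215208 deposited counts, and at this depth 12 counts, taken as about 3 fragments, correspond to 0.182 to 0.214 CPM (counts scaled to library size, with TMM factors). Such a floor covers counting error only. The labels do not say whether replicates were separate cultures, so p-values measure the spread between these libraries. Of 12 markers of organ of Corti hair and supporting cells, only Myo6, Jag1 and Sox9 averaged at least 1 CPM. Atoh1, Slc26a5, Sox2 and Prox1 had no count. Fibroblast markers were abundant, with summed levels of 7779 to 7885 CPM in pretreated H2O2 cells, 7979 to 8061 CPM in H2O2 cells and 9168 to 9228 CPM in control cells. As in any bulk sample, fewer cells of a type and less RNA per cell cannot be told apart. The 3 comparisons below share libraries pairwise and are not independent of each other.

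Most members were lower in pretreated H2O2 cells than in either other group. Against H2O2 cells, 24 of 34 tested members fell and 2 rose (edgeR, Benjamini-Hochberg adjusted p under 0.05). Of all genes tested, 31.3% fell and 32.4% rose. The median log2 fold change was -0.39 over the members and 0.019 over all genes. Against control cells, 23 members fell and 5 rose, while 29.5% of all genes fell and 33.7% rose. Here the medians were -0.47 for the members and 0.063 for all genes. Of the members, 8 fell by at least 2-fold, a change found in 7.22% of all genes: Elovl6, Scd2, Acsl3, Lpin2, Lpin1, Acaca, Fasn and Acss2. Over all settings run, Elovl6, Scd2 and Acsl3 stayed at a fall of at least 2-fold. The weakest log2 fold changes of the others were -0.83 for Lpin2, -0.61 for Lpin1, -0.69 for Acaca and -0.66 for both Fasn and Acss2.

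H2O2 without pretreatment did not move the members in one direction. Of the 34 tested members, 14 fell and 10 rose against control, while 24.1% of all genes fell and 24.6% rose. The median log2 fold change was -0.0061 over the members and 0.015 over all genes. Carboxylase 1, the synthase, Elovl6 and the stearoyl-CoA desaturases were among those that fell, and Elovl1, Tecr, Hacd1, Mecr and Dgat2 among those that rose. Changes in this comparison also depended on gene length across the whole transcriptome, so members' H2O2 values below are given with offsets for length and GC content where these end a call, turn a sign or move the value by over 1.5 times. Calls are more frequent among expressed genes: when the 12883 genes that averaged 1 CPM or more were tested alone, 4728 fell and 4727 rose in pretreated H2O2 against H2O2 cells.

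**Figure D1:**
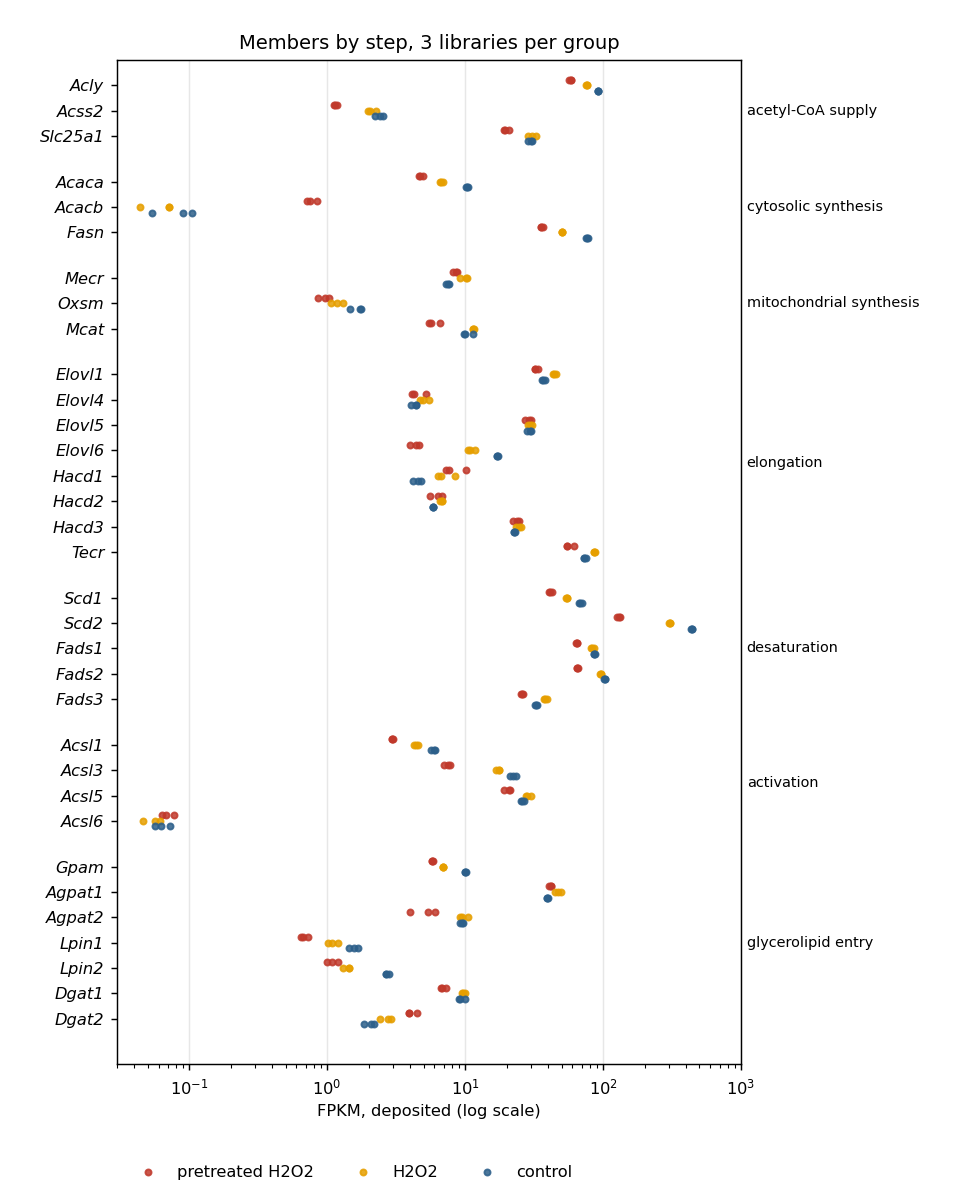
Level of 33 members in each library, as FPKM on a log axis, arranged by step; points are single libraries, and Elovl3 and Elovl7, listed at 0 in some libraries, and Elovl2 are left out. Scd2 spans 129.9 ± 3.12 FPKM in pretreated H2O2 cells, 306 ± 2.50 FPKM in H2O2 cells and 439 ± 2.61 FPKM in control cells, and Acacb is the member that lies far higher in pretreated H2O2 cells.

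**Figure D2:**
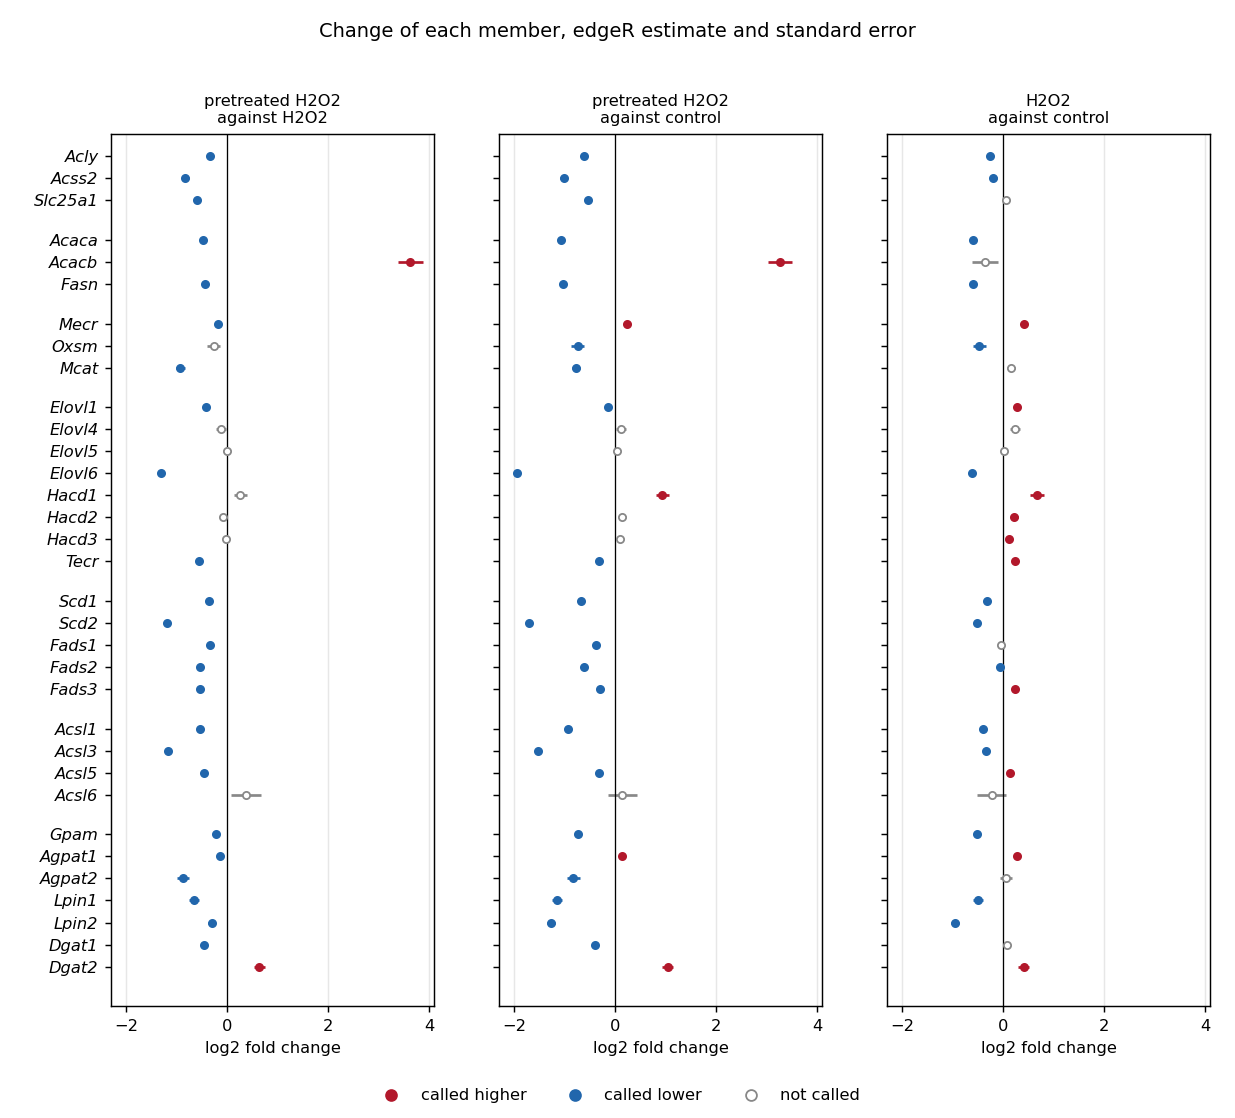
log2 fold change of 33 tested members in the 3 comparisons, with bars of 1 standard error; filled points passed an adjusted p of 0.05 in edgeR and open points did not, and Elovl7 is left out for its low counts. Filled points in the first panel lie left of 0 for 24 members and right of it for 2, and the third panel is mixed.

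Summed over members, FPKM (fragments scaled to gene length and library size) was 724 ± 6.94 FPKM in pretreated H2O2 cells, 1110.2 ± 4.21 FPKM in H2O2 cells and 1283 ± 5.85 FPKM in control cells. Desaturation carried the largest part of this sum among the steps, with 326 ± 3.69 FPKM in pretreated H2O2 cells, 578 ± 3.72 FPKM in H2O2 cells and 729 ± 4.68 FPKM in control cells. Cytosolic synthesis summed to 41.6 ± 0.485 FPKM in pretreated H2O2 cells, 57.2 ± 0.473 FPKM in H2O2 cells and 86.9 ± 1.03 FPKM in control cells. The pretreated libraries were the lowest and the control libraries the highest in both, without overlap. Elongation followed another pattern, with 166 ± 5.70 FPKM in pretreated H2O2 cells, 215 ± 0.599 FPKM in H2O2 cells and 194 ± 2.21 FPKM in control cells. Mitochondrial synthesis had the same order as elongation, with 15.4 ± 0.818 FPKM in pretreated H2O2 cells, 22.5 ± 0.514 FPKM in H2O2 cells and 19.5 ± 0.847 FPKM in control cells. In each of these sums the libraries of any 2 groups did not overlap. For such groups of 3 an exact two-sided permutation test cannot give less than the p = 0.1 found here. Over all genes, FPKM summed to 284002 to 284840 in pretreated H2O2, 306201 to 307230 in H2O2 and 285195 to 286544 in control libraries. The sums by step were not scaled to these totals and carry no offsets for length and GC.

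Upstream sequence is shown for 4 of the members that fell at least 2-fold against control, since genes that move together can be compared at their promoters. The windows come from RefSeq on GRCm38.p6, end at or before the earliest annotated start of the gene in GENCODE M21 and are printed 5′ to 3′ on the gene's strand. Capitals mark CCAAT on either strand (ATTGG on the printed strand), the letters bound by NF-Y, a factor that is known to act with SREBPs.
Fasn chr11:120824548-120824797 (-): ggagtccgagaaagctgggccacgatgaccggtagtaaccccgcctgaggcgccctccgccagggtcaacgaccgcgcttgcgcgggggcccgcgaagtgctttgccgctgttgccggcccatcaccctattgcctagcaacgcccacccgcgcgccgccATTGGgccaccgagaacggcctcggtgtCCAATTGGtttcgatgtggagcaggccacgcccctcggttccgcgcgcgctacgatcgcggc
Elovl6 chr3:129532136-129532354 (+): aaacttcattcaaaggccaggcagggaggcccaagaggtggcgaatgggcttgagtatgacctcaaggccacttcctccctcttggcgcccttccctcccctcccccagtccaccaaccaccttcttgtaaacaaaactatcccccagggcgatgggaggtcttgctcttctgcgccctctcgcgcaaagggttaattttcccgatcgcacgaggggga
Acsl3 chr1:78657575-78657824 (+): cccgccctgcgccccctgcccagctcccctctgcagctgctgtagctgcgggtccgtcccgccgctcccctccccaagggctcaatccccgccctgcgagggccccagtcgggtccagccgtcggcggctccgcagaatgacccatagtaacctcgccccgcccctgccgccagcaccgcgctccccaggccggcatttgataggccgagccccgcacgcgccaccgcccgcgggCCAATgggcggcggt
Acss2 chr2:155517793-155517947 (+): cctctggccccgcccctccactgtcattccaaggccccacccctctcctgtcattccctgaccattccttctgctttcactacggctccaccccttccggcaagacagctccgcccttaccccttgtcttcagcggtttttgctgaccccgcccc

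The Fasn window held CCAAT 3 times, of which 2 overlap as CCAATTGG, and the Acsl3 window once; the Elovl6 and Acss2 windows as printed held none. In windows of 250 bases before a RefSeq start, CCAAT occurred on either strand in 17 of 29 members with a window (58.6%) and in 37.5% of 27025 genes. These 27025 are all genes with a window, whether or not they were tested here. Of the 17, Acacb, Elovl5, Hacd3 and Acsl6 were not called lower in pretreated H2O2 against H2O2 cells, and the others were. Among all tested members, with or without CCAAT, 24 of 34 were called lower there. Whether CCAAT goes with a lower call was not tested. Acss2 is among the 17, though its window as printed, of 155 bases, held none. The sterol regulatory element TCACNCCAC occurred in 1 member, Acsl1 (3.45%), and in 1.22% of all genes. A match describes these letters only and no binding was measured.

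All 3 genes of acetyl-CoA supply fell in pretreated H2O2 cells against both other groups. Beside them, 31.3% of all genes fell against H2O2 and 29.5% against control. Acly, ATP citrate lyase, which makes cytosolic acetyl-CoA from citrate, had 344, 341 and 332 CPM in pretreated H2O2 cells, 431, 428 and 436 CPM in H2O2 cells and 518, 522 and 522 CPM in control cells. No libraries overlapped between groups, and Acly fell 1.27-fold against H2O2 (log2 fold change -0.35, SE 0.020, edgeR adjusted p = 1.11e-08). Against control the fall was 1.54-fold (log2 fold change -0.62, SE 0.020, edgeR adjusted p = 5.27e-11). It also fell in H2O2 against control (log2 fold change -0.27, SE 0.020, edgeR adjusted p = 1.59e-07; -0.19 with offsets for exonic length and GC, and -0.12 with coding transcript length). Slc25a1, the carrier that exports citrate from mitochondria, had 50.1, 45.9 and 46.6 CPM in pretreated H2O2 cells, 66.6, 72.1 and 76.0 CPM in H2O2 cells and 70.3, 66.6 and 70.0 CPM in control cells. The H2O2 and control libraries overlapped (log2 fold change 0.054, SE 0.050, edgeR adjusted p = 0.419; -0.088 and -0.12 with these offsets, neither called), and all 3 pretreated libraries lay below both. Its log2 fold change was -0.59 against H2O2 (edgeR adjusted p = 5.13e-07) and -0.54 against control (edgeR adjusted p = 1.24e-06).

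Acss2, which makes acetyl-CoA from acetate (ENSMUSG00000027605, chromosome 2, 155517948 to 155576980, plus strand, GRCm38), had 13.3, 12.8 and 12.7 CPM in pretreated H2O2 cells, 21.6, 22.5 and 24.8 CPM in H2O2 cells and 26.5, 27.8 and 24.5 CPM in control cells. Pretreated libraries lay far below the others, and Acss2 fell 1.78-fold against H2O2 (log2 fold change -0.83, SE 0.076, edgeR adjusted p = 8.77e-07). Against control the fall was 2.03-fold (log2 fold change -1.02, SE 0.076, edgeR adjusted p = 1.21e-07). H2O2 and control overlapped at 1 pair of libraries, and the small difference between them was just past the threshold (log2 fold change -0.19, SE 0.074, edgeR adjusted p = 0.0484). It was 0.19 with offsets and -0.16 with coding transcript length, neither called. The call was also lost without the filter on low counts and without any 1 library other than control replicate 3, H2O2 replicate 3 or pretreated H2O2 replicate 1. Exons of Acss2 overlap those of Gss and Ggt7 on the opposite strand, and whether counting used the strand is not given in the sources used here.

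In cytosolic synthesis, the main carboxylase and the synthase fell while the minor carboxylase rose. Fasn, fatty acid synthase (ENSMUSG00000025153, chromosome 11, 120805846 to 120824547, minus strand), had 433, 431 and 445 CPM in pretreated H2O2 cells, 589, 599 and 599 CPM in H2O2 cells and 882, 907 and 903 CPM in control cells. The 3 groups were fully separated, pretreated libraries lowest and control libraries highest. Fasn fell 1.37-fold in pretreated H2O2 against H2O2 cells (log2 fold change -0.45, SE 0.021, edgeR adjusted p = 1.42e-09). Its fall against control was 2.06-fold (log2 fold change -1.04, SE 0.021, edgeR adjusted p = 7.05e-13). Acaca, acetyl-CoA carboxylase 1, which makes the malonyl-CoA used for synthesis (ENSMUSG00000020532, chromosome 11, 84129672 to 84401645, plus strand), had 88.4, 93.3 and 87.0 CPM in pretreated H2O2 cells, 122, 124 and 128 CPM in H2O2 cells and 187, 185 and 193 CPM in control cells. It followed the same order and fell 1.39-fold against H2O2 (log2 fold change -0.48, SE 0.032, edgeR adjusted p = 5.65e-08). Its fall against control was 2.11-fold (log2 fold change -1.08, SE 0.032, edgeR adjusted p = 2.79e-11).

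The fall of both genes in H2O2 cells was not seen under every alternative. In H2O2 against control, Fasn had a log2 fold change of -0.59 (edgeR adjusted p = 2.10e-10) and Acaca of -0.60 (edgeR adjusted p = 8.02e-09). With offsets for exonic length and GC, Fasn stood at -0.093, still called lower, and Acaca at -0.0051, not called. With offsets for the length of the main coding transcript, Fasn stood at 0.14, called higher, and Acaca at 0.025, not called. Both offsets model length and GC together. In pretreated H2O2 against H2O2 cells the same offsets gave -0.64 and -0.80 for Fasn, and -0.69 and -0.77 for Acaca, all called lower. Against control they gave -0.73 and -0.66 for Fasn, and -0.69 and -0.74 for Acaca, which were called lower but no longer 2-fold.

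Acacb, the carboxylase of the mitochondrial outer membrane, whose malonyl-CoA is known to restrain entry of fatty acids into mitochondria (ENSMUSG00000042010, chromosome 5, 114146535 to 114250761, plus strand), went the opposite way. Its values were 7.98, 9.03 and 7.59 CPM in pretreated H2O2 cells, 0.464, 0.745 and 0.774 CPM in H2O2 cells and 1.08, 0.929 and 0.561 CPM in control cells. All pretreated libraries exceeded all others, and Acacb rose 12.3-fold against H2O2 (log2 fold change 3.62, SE 0.25, edgeR adjusted p = 6.83e-08). Its rise against control was 9.59-fold (log2 fold change 3.26, SE 0.25, edgeR adjusted p = 1.45e-07). Of all genes tested, 15.5% rose 2-fold or more against H2O2 and 14.8% against control. Pretreated libraries had a count for 24106 genes on average, against 20690 in H2O2 and 20387 in control libraries. H2O2 and control overlapped for Acacb (log2 fold change -0.36, SE 0.26, edgeR adjusted p = 0.288; 0.052 with offsets and 0.29 with coding transcript length, neither called). Its FPKM remained far below that of Acaca, at 0.769 ± 0.0726 and 4.75 ± 0.191 FPKM in pretreated H2O2 cells (SD, n = 3). Summed adipocyte markers, a cell type with abundant Acacb, were 2.02 to 2.59 CPM in pretreated H2O2, 0.653 to 0.913 CPM in H2O2 and 0.357 to 0.523 CPM in control libraries. None of the 7 markers averaged 1 CPM, Lep and Cfd had no count, and their part in the result was not tested.

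Mitochondrial synthesis is a separate pathway that supplies the precursor of lipoic acid, and its 3 genes did not move together. Mcat, which loads malonyl groups onto the carrier protein, had 14.8, 17.8 and 15.5 CPM in pretreated H2O2 cells, 30.1, 30.3 and 31.2 CPM in H2O2 cells and 25.9, 26.3 and 30.3 CPM in control cells. Pretreated libraries lay below all others, with a log2 fold change of -0.93 against H2O2 (edgeR adjusted p = 7.10e-07) and -0.78 against control (edgeR adjusted p = 3.61e-06). Oxsm, the condensing enzyme, had 3.95, 4.43 and 4.75 CPM in pretreated H2O2 cells, 5.77, 5.28 and 4.77 CPM in H2O2 cells and 7.66, 6.50 and 7.80 CPM in control cells. It fell in H2O2 against control (log2 fold change -0.47, SE 0.13, edgeR adjusted p = 0.00816) and in pretreated H2O2 against control (log2 fold change -0.74, SE 0.13, edgeR adjusted p = 0.000274). Pretreated H2O2 and H2O2 cells differed by -0.27, short of the threshold (edgeR adjusted p = 0.0895).

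Mecr, the enoyl reductase that ends each cycle, had 27.8, 28.9 and 29.3 CPM in pretreated H2O2 cells, 33.2, 34.1 and 30.3 CPM in H2O2 cells and 24.4, 25.0 and 23.9 CPM in control cells. It rose in H2O2 against control (log2 fold change 0.41, SE 0.059, edgeR adjusted p = 6.86e-05), where offsets for coding transcript length gave 0.13 and no call. In pretreated H2O2 against control Mecr was called higher too, and its log2 fold change lay between 0.13 and 0.31 over all settings run. It was lower in pretreated H2O2 than in H2O2 (log2 fold change -0.18, SE 0.059, edgeR adjusted p = 0.0163). That call was lost with RLE scaling, in DESeq2, among genes that averaged 1 CPM or more, without H2O2 replicate 1, H2O2 replicate 2 or pretreated H2O2 replicate 1, and with either offset. Mcat shares 53 exonic bases with Tspo and Oxsm shares 21 with Ngly1, each on the opposite strand. RNA from the mitochondrial genome made up 0.898 ± 0.017% of counts in pretreated H2O2, 1.01 ± 0.003% in H2O2 and 2.66 ± 0.069% in control libraries (SD, n = 3); its part in these results was not tested.

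Among the 11 elongation genes, 9 were tested; 3 fell and 0 rose in pretreated H2O2 against H2O2 cells, where 31.3% of all genes fell and 32.4% rose. The share of elongation genes that fell was thus near that of all genes. H2O2 against control gave 5 higher and 1 lower, where 24.6% of all genes rose and 24.1% fell. Elovl6, the elongase that extends palmitate to stearate (ENSMUSG00000041220, chromosome 3, 129532355 to 129634971, plus strand), had the largest fall of all 34 tested members in both pretreated comparisons. It had 28.3, 31.0 and 32.7 CPM in pretreated H2O2 cells, 81.3, 75.1 and 73.6 CPM in H2O2 cells and 118, 117 and 117 CPM in control cells. The groups were fully separated, and Elovl6 fell 2.50-fold against H2O2 (log2 fold change -1.32, SE 0.052, edgeR adjusted p = 3.37e-10). Against control the fall was 3.83-fold (log2 fold change -1.94, SE 0.052, edgeR adjusted p = 9.47e-12). In H2O2 against control it fell as well (log2 fold change -0.62, SE 0.049, edgeR adjusted p = 3.48e-07), by less with offsets (-0.45, and -0.26 with coding transcript length), still called.

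Elovl1, which makes very long saturated chains used in sphingolipids, had 96.9, 101 and 96.7 CPM in pretreated H2O2 cells, 130.1, 135 and 129 CPM in H2O2 cells and 108, 105 and 112 CPM in control cells. H2O2 libraries were the highest and pretreated libraries the lowest, without overlap. Elovl1 fell in pretreated H2O2 against H2O2 (log2 fold change -0.42, SE 0.032, edgeR adjusted p = 1.67e-07). It rose in H2O2 against control (log2 fold change 0.28, SE 0.032, edgeR adjusted p = 9.75e-06; 0.091 with offsets, and 0.016 and not called with coding transcript length). Its exons share 53 bases with Cdc20 on the opposite strand. Tecr, the reductase of the last step of each elongation cycle, showed the same order, at 158 ± 10.6 CPM in pretreated H2O2, 234 ± 3.66 CPM in H2O2 and 198 ± 2.60 CPM in control cells (SD, n = 3 each). It fell in pretreated H2O2 against H2O2 (log2 fold change -0.57, SE 0.039, edgeR adjusted p = 6.02e-08). The rise of Tecr in H2O2 against control (0.24, edgeR adjusted p = 0.000198) ended with offsets (0.059 and -0.049).

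Hacd1, one of the dehydratases of the elongation cycle, was the elongation gene that rose in pretreated H2O2 cells against control. It had 18.1, 17.1 and 23.6 CPM in pretreated H2O2 cells, 19.2, 15.3 and 14.6 CPM in H2O2 cells and 9.55, 10.4 and 10.8 CPM in control cells. Pretreated H2O2 and H2O2 libraries overlapped, and each lay above all control libraries. Its log2 fold change was 0.93 in pretreated H2O2 against control (edgeR adjusted p = 5.62e-05) and 0.67 in H2O2 against control (edgeR adjusted p = 0.00104; 0.41 with offsets, still called). The difference of 0.26 between pretreated H2O2 and H2O2 cells was not called (edgeR adjusted p = 0.106) but was with offsets (0.46). Hacd2 and Hacd3, which carry out the same reaction, had log2 fold changes of 0.22 and 0.12 in H2O2 against control. With offsets Hacd2 stood at 0.15, not called (0.23 and called with coding transcript length), and Hacd3 at -0.066 and -0.0026, neither called. Both calls also ended when either H2O2 replicate 1 or 2 or any control library was left out, and that of Hacd3 without pretreated H2O2 replicate 1, in DESeq2 and with RLE scaling. Elovl5, an elongase of polyunsaturated chains, averaged 112 ± 6.05 CPM in pretreated H2O2, 112 ± 3.86 CPM in H2O2 and 110.1 ± 4.06 CPM in control cells and was not called in any comparison. Its log2 fold changes were 0.00086 (SE 0.042) in pretreated H2O2 against H2O2, 0.026 in pretreated H2O2 against control and 0.025 in H2O2 against control (-0.064 and -0.089 with the offsets). With offsets the first was 0.11 and called. Elovl4, which makes very long chains, was at 15.2 ± 1.94 CPM in pretreated H2O2, 16.5 ± 1.33 CPM in H2O2 and 14.0 ± 0.647 CPM in control cells and was not called either.

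The remaining elongases were near the limit of detection. Elovl7 had 66, 0 and 28 deposited counts in pretreated H2O2, 18, 0 and 19 in H2O2 and 0, 4 and 4 in control libraries, and no comparison passed. Elovl3 had 4, 15 and 14 deposited counts in pretreated H2O2, 8, 0 and 6 in H2O2 and 0, 0 and 7 in control libraries and was not tested. Elovl2 had no count in any library, which allows a level of up to 0.214 CPM in a library.

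All 5 desaturases fell in pretreated H2O2 cells against both H2O2 and control cells, where 31.3% and 29.5% of all genes fell. Scd2, a stearoyl-CoA desaturase that makes oleate (ENSMUSG00000025203, chromosome 19, 44293674 to 44306864, plus strand), had the highest FPKM of all members in every group. It had 798, 759 and 794 CPM in pretreated H2O2 cells, 1803, 1792 and 1818 CPM in H2O2 cells and 2581, 2558 and 2573 CPM in control cells. No libraries overlapped, and Scd2 fell 2.30-fold in pretreated H2O2 against H2O2 (log2 fold change -1.20, SE 0.020, edgeR adjusted p = 2.31e-13). Its fall against control was 3.28-fold (log2 fold change -1.71, SE 0.021, edgeR adjusted p = 9.94e-15). Across every alternative its log2 fold change lay between -1.33 and -1.12 against H2O2 and between -1.76 and -1.53 against control. In H2O2 against control Scd2 fell by a smaller amount (log2 fold change -0.51, SE 0.020, edgeR adjusted p = 5.84e-10), at -0.41 with offsets and -0.20 with coding transcript length, both called.

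Scd1, its close paralog on the same chromosome, had 229, 217 and 223 CPM in pretreated H2O2 cells, 286, 289 and 285 CPM in H2O2 cells and 353, 351 and 368 CPM in control cells. It followed the same order, with a log2 fold change of -0.36 in pretreated H2O2 against H2O2 (edgeR adjusted p = 9.87e-08) and -0.68 against control (edgeR adjusted p = 2.70e-10). H2O2 against control gave -0.32 (edgeR adjusted p = 4.49e-07; -0.092 with coding transcript length). Reads shared by the near-identical parts of Scd1 and Scd2 may be split by the authors' counting, which makes the level of each less certain. Fads2, the desaturase that starts the synthesis of polyunsaturated chains, had 239, 234 and 234 CPM in pretreated H2O2 cells, 339.5, 347 and 345 CPM in H2O2 cells and 362, 356 and 367 CPM in control cells. H2O2 libraries lay close below control (log2 fold change -0.072, SE 0.021, edgeR adjusted p = 0.0118; -0.17 with offsets and -0.10 with coding transcript length, both called) and pretreated libraries well below both, at -0.54 against H2O2 (edgeR adjusted p = 2.97e-10).

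Fads1, which acts after Fads2 in the same pathway, averaged 342 ± 0.894 CPM in pretreated H2O2, 435 ± 10.0 CPM in H2O2 and 446 ± 2.82 CPM in control cells. H2O2 and control libraries overlapped, and the log2 fold change against H2O2 was -0.35 (edgeR adjusted p = 1.91e-08). Fads3, known to act on sphingoid bases, was the desaturase that rose in H2O2 against control (log2 fold change 0.23, SE 0.027, edgeR adjusted p = 1.09e-05; 0.18 with offsets). In pretreated H2O2 cells Fads3 averaged 108 ± 1.89 CPM, against 156 ± 3.55 CPM in H2O2 and 133 ± 2.67 CPM in control cells, a fall against both (-0.53 and -0.30).

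Acyl-CoA synthetases couple free fatty acids to coenzyme A, and 3 of the 4 members fell in pretreated H2O2 cells against both other groups. The shares of all genes that fell were 31.3% against H2O2 and 29.5% against control. Acsl3, a synthetase of the endoplasmic reticulum and lipid droplets (ENSMUSG00000032883, chromosome 1, 78657825 to 78707743, plus strand), had 36.6, 33.9 and 37.2 CPM in pretreated H2O2 cells, 82.7, 79.2 and 82.5 CPM in H2O2 cells and 108, 104 and 98.6 CPM in control cells. The groups did not overlap, and Acsl3 fell 2.27-fold against H2O2 (log2 fold change -1.18, SE 0.044, edgeR adjusted p = 2.29e-10). Against control the fall was 2.89-fold (log2 fold change -1.53, SE 0.044, edgeR adjusted p = 2.05e-11). H2O2 against control gave -0.35 (edgeR adjusted p = 1.77e-05; -0.35 with offsets). Acsl3 shares 244 exonic bases with Utp14b on the same strand. Acsl1, the synthetase that is most abundant in tissues with high lipid turnover, had 34.5, 34.0 and 34.6 CPM in pretreated H2O2 cells, 50.0, 48.7 and 51.4 CPM in H2O2 cells and 67.4, 64.2 and 67.0 CPM in control cells. It fell in pretreated H2O2 against H2O2 (log2 fold change -0.54, SE 0.039, edgeR adjusted p = 9.14e-08) and against control (log2 fold change -0.95, SE 0.039, edgeR adjusted p = 4.80e-10). The lower level in H2O2 than in control (-0.40, edgeR adjusted p = 1.59e-06) was -0.020 with offsets and not called.

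Acsl5, a synthetase of the endoplasmic reticulum and mitochondria, had its highest mean in H2O2 cells. It averaged 109 ± 5.95 CPM in pretreated H2O2, 150.1 ± 5.98 CPM in H2O2 and 136 ± 3.09 CPM in control cells. The level was higher in H2O2 than in control (log2 fold change 0.14, SE 0.040, edgeR adjusted p = 0.0121), a call lost without H2O2 replicate 1. With offsets it stood at 0.19, and at 0.27 with coding transcript length, both called. In pretreated H2O2 it was lower than in H2O2 (log2 fold change -0.46, SE 0.040, edgeR adjusted p = 6.94e-07). It shares 404 exonic bases with Zdhhc6 on the opposite strand. Acsl6 was low throughout, with 57, 47 and 44 deposited counts in pretreated H2O2, 31, 40 and 44 in H2O2 and 48, 39 and 41 in control libraries, and was not called.

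In glycerolipid entry, 6 of 7 genes fell and 1 rose in pretreated H2O2 against H2O2 cells, where 31.3% of all genes fell and 32.4% rose. Gpam, the mitochondrial acyltransferase that opens the pathway, had 42.9, 42.4 and 42.6 CPM in pretreated H2O2 cells, 49.7, 50.0 and 49.9 CPM in H2O2 cells and 71.3, 71.2 and 72.2 CPM in control cells. The groups were fully separated, with a log2 fold change of -0.23 in pretreated H2O2 against H2O2 (edgeR adjusted p = 5.11e-05) and -0.75 against control (edgeR adjusted p = 7.56e-10). H2O2 against control gave -0.52 for Gpam (edgeR adjusted p = 2.95e-08; -0.33 with offsets and -0.12 with coding transcript length). Agpat2, which adds the second acyl chain, had 12.8, 14.3 and 9.45 CPM in pretreated H2O2 cells, 21.9, 21.4 and 24.2 CPM in H2O2 cells and 21.8, 21.2 and 22.0 CPM in control cells. H2O2 and control overlapped, pretreated libraries lay below both, and the change against H2O2 was -0.88 (SE 0.12, edgeR adjusted p = 4.21e-05). Agpat1, which catalyses the same reaction, averaged 138 ± 2.33 CPM in pretreated H2O2, 153 ± 6.63 CPM in H2O2 and 126 ± 0.962 CPM in control cells. Its rise in H2O2 against control (log2 fold change 0.28, SE 0.031, edgeR adjusted p = 7.72e-06) was still called with offsets (0.24). Agpat1 was also called higher in pretreated H2O2 against control, where its log2 fold change lay between 0.081 and 0.20 over all settings run. Its fall in pretreated H2O2 against H2O2 (-0.15, edgeR adjusted p = 0.000919) was not called among genes that averaged 1 CPM or more or with coding transcript length (-0.054).

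The phosphatidate phosphatases Lpin1 and Lpin2, which make diacylglycerol, fell at each comparison. Lpin2 (ENSMUSG00000024052, chromosome 17, 71182560 to 71249817, plus strand) had 14.8, 16.3 and 13.6 CPM in pretreated H2O2 cells, 19.0, 19.2 and 17.4 CPM in H2O2 cells and 35.1, 35.5 and 37.2 CPM in control cells. It showed the largest fall of all tested members in H2O2 against control (log2 fold change -0.96, SE 0.075, edgeR adjusted p = 3.08e-07), -0.50 with offsets and -0.62 with coding transcript length. Its fall was smaller in pretreated H2O2 against H2O2 (log2 fold change -0.31, SE 0.076, edgeR adjusted p = 0.00307). Lpin1 had 7.41, 7.93 and 7.10 CPM in pretreated H2O2 cells, 10.9, 12.9 and 11.7 CPM in H2O2 cells and 17.9, 15.4 and 16.8 CPM in control cells. It fell in pretreated H2O2 against H2O2 (log2 fold change -0.66, SE 0.10, edgeR adjusted p = 6.76e-05) and against control (log2 fold change -1.16, SE 0.10, edgeR adjusted p = 3.95e-07). The fall of Lpin1 in H2O2 against control (-0.50, edgeR adjusted p = 0.000713) was -0.15 with offsets and not called.

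The final acylation to triglyceride is made by unrelated enzymes that moved apart. Dgat2 (ENSMUSG00000030747, chromosome 7, 99153658 to 99182719, minus strand) had 13.3, 15.2 and 13.4 CPM in pretreated H2O2 cells, 8.02, 9.67 and 9.28 CPM in H2O2 cells and 6.91, 7.29 and 6.15 CPM in control cells. Pretreated libraries were the highest and control libraries the lowest, without overlap, and Dgat2 rose 1.55-fold against H2O2 (log2 fold change 0.63, SE 0.11, edgeR adjusted p = 0.000216). Its rise against control was 2.06-fold (log2 fold change 1.04, SE 0.11, edgeR adjusted p = 3.15e-06). Its rise in H2O2 against control (log2 fold change 0.41, SE 0.11, edgeR adjusted p = 0.00753) was 0.33 with offsets, called, and 0.28 with coding transcript length, not called. Dgat1 averaged 23.4 ± 1.01 CPM in pretreated H2O2, 32.3 ± 0.795 CPM in H2O2 and 30.8 ± 1.68 CPM in control cells. Its log2 fold change in pretreated H2O2 against H2O2 was -0.47 (edgeR adjusted p = 1.77e-05), and H2O2 and control libraries overlapped.

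The make-up of enzyme families differed between the groups, measured as each gene's share of the family's summed FPKM, which is scaled to length. Only members enter a family here, so relatives outside the member list, such as Acsl4 among the synthetases, are not in the sums. Scd1 took 24.1 ± 0.242% in pretreated H2O2 cells, 15.1 ± 0.195% in H2O2 cells and 13.4 ± 0.293% in control cells of the pair Scd1 and Scd2. Dgat2 took 37.2 ± 0.721% in pretreated H2O2 cells, 21.6 ± 2.02% in H2O2 cells and 17.9 ± 1.06% in control cells of the diacylglycerol acyltransferases. Acacb took 13.9 ± 0.642% in pretreated H2O2 cells, 0.912 ± 0.219% in H2O2 cells and 0.797 ± 0.261% in control cells of the carboxylases. Among elongases the share of Elovl6 was 6.13 ± 0.512% in pretreated H2O2 cells, 12.2 ± 0.676% in H2O2 cells and 19.5 ± 0.528% in control cells. Among the synthetases Acsl3 held 24.2 ± 0.302% in pretreated H2O2 cells, 34.4 ± 0.407% in H2O2 cells and 40.9 ± 0.724% in control cells. Acsl5 held 66.0 ± 0.524% in pretreated H2O2 cells, 56.7 ± 0.660% in H2O2 cells and 48.2 ± 0.368% in control cells. Pretreated libraries did not overlap either other group in any of these shares (exact permutation test, two-sided p = 0.1, the lowest that this design can give). FPKM was computed over all annotated exons. Rescaled to the main coding transcript, Acacb took 8.99 ± 0.438% in pretreated H2O2, 0.559 ± 0.135% in H2O2 and 0.488 ± 0.161% in control cells. On that scale Elovl6 took 4.92 ± 0.401% in pretreated H2O2 cells, 9.82 ± 0.547% in H2O2 cells and 16.0 ± 0.441% in control cells.

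**Figure D3:**
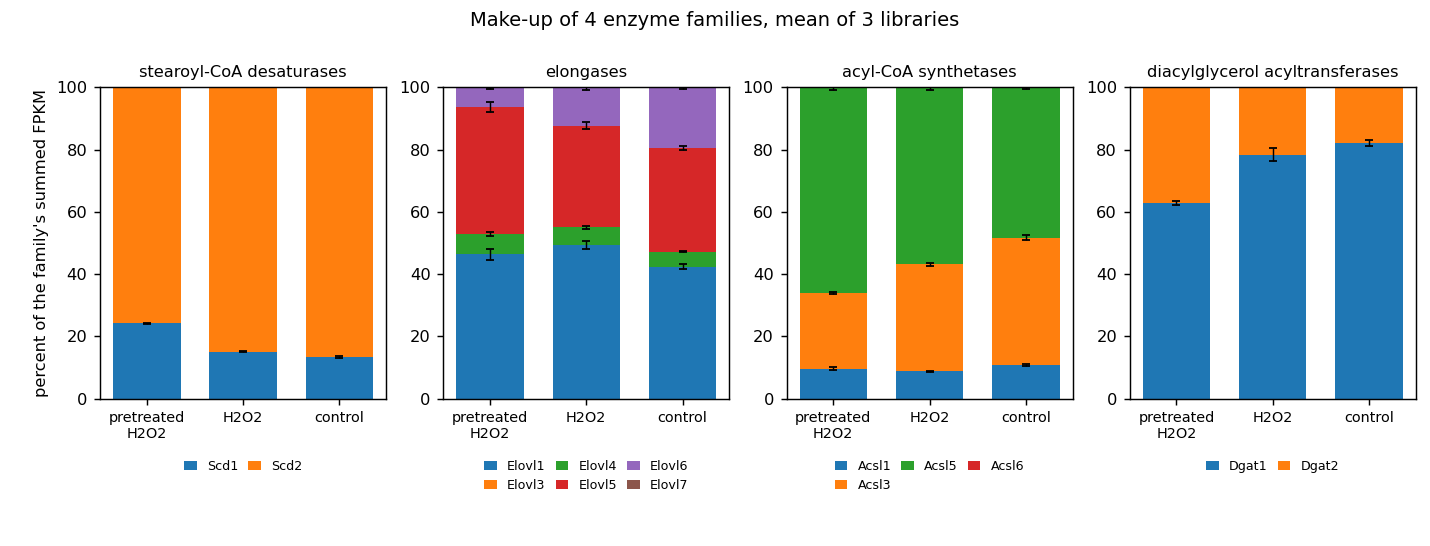
Make-up of 4 enzyme families, members only, in percent of their summed FPKM, as the mean of 3 libraries per group. Black bars mark 1 SD at the upper edge of a segment. Scd1 takes 24.1 ± 0.242% in pretreated H2O2 cells against 13.4 ± 0.293% in control cells, and the Elovl6 segment narrows to 6.13 ± 0.512%.

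In H2O2 against control, medians went down with gene length both over the members and over all genes, though not by the same amount. Over all genes tested, the median log2 fold change of H2O2 against control was 0.32 in the shortest of 4 equal-sized classes of exonic length, 0.18 in the second, -0.015 in the third and -0.31 in the longest. The members' medians were 0.19 for the 14 in the second class, -0.15 for the 10 in the third and -0.51 for the 10 in the longest. Fasn and Acaca, with 10947 and 17074 exonic bases, lie in the longest class. In pretreated H2O2 against H2O2 cells all genes had medians of -0.017, 0.010 and 0.11 in the same 3 classes. The members had -0.30, -0.36 and -0.46. Changes in pretreated H2O2 against control also depended on length, with all-gene medians of 0.25, 0.14, 0.011 and -0.17 from the shortest to the longest class. The members had -0.057, -0.50 and -1.03 in the 3 classes that hold members. In both pretreated comparisons the members' medians lay below those of all genes in each of these 3 classes. What gives the dependence on length in H2O2 against control and in pretreated H2O2 against control was not tested.

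**Figure D4:**
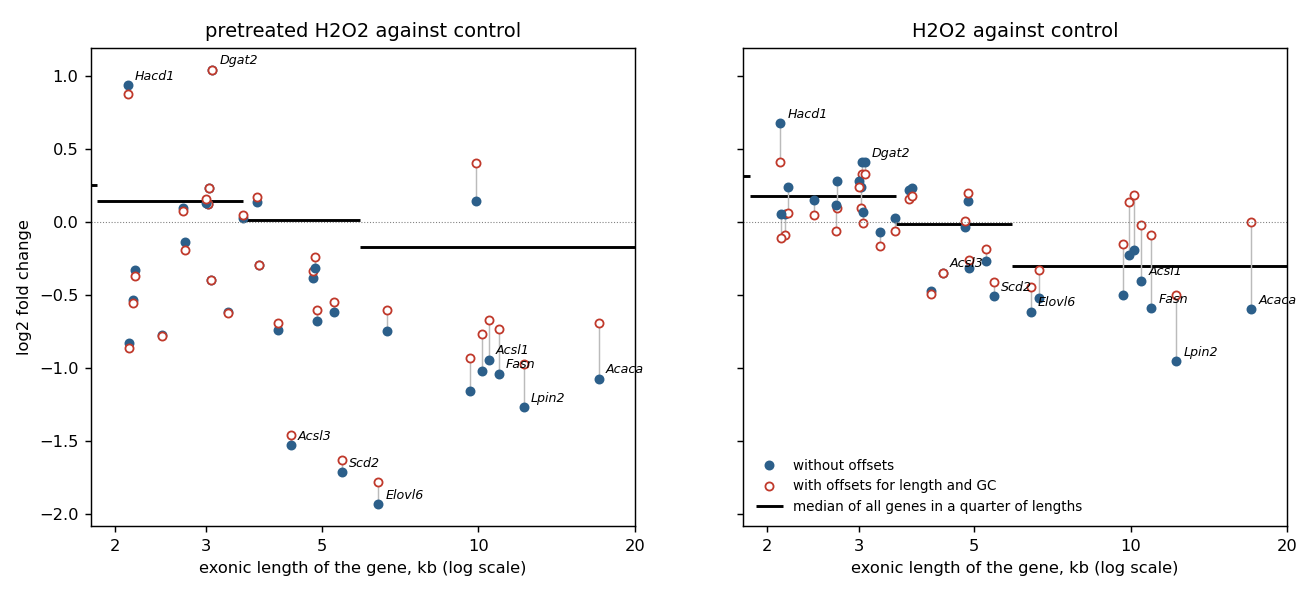
log2 fold change against exonic length on a log axis for 32 tested members (Acacb and Elovl7 left out), without offsets (filled) and with offsets for length and GC (open); black lines are the medians of all genes in each of 4 length classes. In H2O2 against control Acaca moves to -0.0051 and Fasn to -0.093, whereas in pretreated H2O2 against control they stay at -0.69 and -0.73.

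Regulators of the pathway passed the test in both directions. Of 26 regulators in a fixed list, all tested, 8 rose and 10 fell in pretreated H2O2 against H2O2 (median 0.030), where 32.4% of all genes rose and 31.3% fell. Against control 6 rose and 13 fell (median -0.17), beside 33.7% and 29.5% of all genes. Of the same 26, 8 rose and 10 fell in H2O2 against control (median 0.012), beside 24.6% and 24.1% of all genes. Insig1, the sterol-sensitive anchor that is itself an SREBP target, averaged 85.0 ± 2.24 CPM in pretreated H2O2 cells and 187 ± 1.05 CPM in H2O2 cells (log2 fold change -1.14, SE 0.027, edgeR adjusted p = 4.51e-12). Its level was 201 ± 5.06 CPM in control cells. Insig2, its relative, averaged 25.9 ± 0.329 CPM in pretreated H2O2 cells and 54.1 ± 1.57 CPM in control cells (log2 fold change -1.06, SE 0.044, edgeR adjusted p = 5.84e-10). Ppard, a nuclear receptor for fatty acids, rose, with 84.5 ± 3.87 CPM in pretreated H2O2 cells and 31.8 ± 1.22 CPM in H2O2 cells (log2 fold change 1.41, SE 0.048, edgeR adjusted p = 8.67e-11). Against control cells Ppard was not called with a 2-fold change. Mlxipl, the carbohydrate-responsive factor also called ChREBP, had 70 counts over the pretreated libraries and 0 in both other groups. Thrsp had 50 in pretreated H2O2, 36 in H2O2 and 0 in control libraries; both lie near the floor.

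The SREBP genes themselves and Scap changed less than 2-fold and are given here for their role, outside the rule for naming. Srebf1, whose protein mainly drives fatty acid genes, averaged 63.5 ± 3.54 CPM in pretreated H2O2, 66.6 ± 2.84 CPM in H2O2 and 94.9 ± 3.55 CPM in control cells. It was lower in H2O2 than in control (-0.51, edgeR adjusted p = 1.10e-06; -0.29 and -0.28 with the offsets), and the difference between pretreated H2O2 and H2O2 cells did not pass the threshold (-0.069, edgeR adjusted p = 0.216), though it did with the offsets (-0.14 and -0.15). Srebf2, whose protein mainly drives cholesterol genes, averaged 431 ± 7.08 CPM in pretreated H2O2, 309 ± 7.59 CPM in H2O2 and 538 ± 13.7 CPM in control cells. It was higher in pretreated H2O2 than in H2O2 cells (0.48, edgeR adjusted p = 5.64e-09; 0.37 and 0.34 with the offsets), the opposite direction to most fatty acid genes in that comparison. In H2O2 it was lower than in control (-0.80, edgeR adjusted p = 1.07e-10; -0.49 and -0.46 with the offsets). Scap averaged 114 ± 2.41 CPM in pretreated H2O2, 97.8 ± 2.80 CPM in H2O2 and 119 ± 5.58 CPM in control cells. Like Srebf2, Scap was higher in pretreated H2O2 than in H2O2 (0.22, edgeR adjusted p = 0.000160, and 0.089 and 0.14 with the offsets). Against control cells, Srebf1 was lower in pretreated H2O2 cells (-0.58, edgeR adjusted p = 2.48e-07, and -0.44 and -0.43 with the offsets). Srebf2 was lower there too (-0.32, edgeR adjusted p = 2.43e-07, and -0.12 with either offset), as were most members. Scap stood at -0.064 in that comparison, which was not called (edgeR adjusted p = 0.140). Its values with the offsets were 0.16 and 0.087, and both passed the threshold.

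Other enzymes of synthesis and chain modification, which are no members, fell more often than they rose in pretreated H2O2 against H2O2 cells. Of 43 listed genes 34 were tested, of which 21 fell and 6 rose (median -0.32), beside 31.3% and 32.4% of all genes. Against control 14 fell and 9 rose (median -0.072), beside 29.5% and 33.7% of all genes. Of these 34, 4 fell and 14 rose in H2O2 against control (median 0.18), beside 24.1% and 24.6% of all genes. Idh1, cytosolic isocitrate dehydrogenase and a source of NADPH, averaged 35.1 ± 3.39 CPM in pretreated H2O2 cells and 82.5 ± 3.36 CPM in H2O2 cells (log2 fold change -1.23, SE 0.061, edgeR adjusted p = 3.10e-09). Lipt2, which moves the product of mitochondrial synthesis onto target proteins, averaged 1.06 ± 0.0340 CPM in pretreated H2O2 cells and 2.52 ± 0.299 CPM in H2O2 cells (log2 fold change -1.25, SE 0.17, edgeR adjusted p = 4.37e-05). Scd3, a paralog of Scd1, averaged 0.477 ± 0.119 CPM in pretreated H2O2 cells and 2.59 ± 1.73 CPM in H2O2 cells (log2 fold change -2.44, SE 0.69, edgeR adjusted p = 0.00794). The spread of Scd3 was wide, and reads shared with Scd1 and Scd2 make it uncertain. In control cells Idh1 averaged 89.3 ± 4.08 CPM, Lipt2 2.62 ± 0.110 CPM and Scd3 2.30 ± 2.33 CPM. Acsbg1, another acyl-CoA synthetase, was higher, with 5.61 ± 0.601 CPM in pretreated H2O2 cells and 2.40 ± 0.340 CPM in control cells (log2 fold change 1.22, SE 0.18, edgeR adjusted p = 6.41e-05). The bile acid and fatty acid ligase Slc27a5 had 105 counts over the pretreated, 8 over the H2O2 and 0 over the control libraries.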

How the data were processed

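Total RNA was isolated with TRIzol and enriched for poly(A) transcripts; dUTP strand-specific libraries were read from both ends at 150 bp, per the labels' protocols. Which aligner and which counting software the authors ran is not given in the sources used here. The submitters' processing notes name only the human build hg38, but the deposited tables hold mouse Ensembl identifiers with GRCm38 coordinates, of which 99.5% of those found in GENCODE M21 had the same start.

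The authors deposited estimated counts per gene, not scaled to library size. Values of 4, 8 and 12 are in excess, so 12 counts were taken as about 3 fragments. This is an assumption, since 7779 values of 1, 6750 of 2 and 4842 of 3 occur beside 9836 of 4. The authors also deposited FPKM, scaled to library size and to a length close to the union of annotated exons (the implied length was within 5% of a constant multiple of it for 98.4% of 12614 genes). FPKM is therefore lower than on a scale over the main coding transcript for genes whose annotated exons exceed it, such as Acss2 (10163 and 3609 bases).

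Differential expression was tested on counts by edgeR 4.0.16 (R 4.3.3; TMM scaling, default filter by group, quasi-likelihood test on all 9 libraries, Benjamini-Hochberg adjustment over 18092 genes, threshold 0.05), after rounding was found unnecessary because all counts are whole. Log2 fold changes are from that fit. Offsets were smooth functions of exonic length and GC content, fitted per library with mgcv 1.9.3.  Alternatives were DESeq2 1.42.0, RLE scaling, total counts, no filter, a mean of at least 1 CPM, only the 2 groups compared, a replicate block, counts divided by 4, the offsets, limma 3.58.1 on log2(FPKM + 1) or log2(FPKM + 0.1), and leaving out each library. Offsets with coding transcript length and rescaled shares were added after the data were seen. Shares and sums were tested by exact permutation in scipy 1.17.1.

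The members and lists were chosen with earlier results of these data known. Values per library are given for members called with at least a 1.5-fold change in any comparison and for the first enzyme of each step; genes of the lists are named when called with at least a 2-fold change, at most 5 a list and comparison.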

Additional observations from a re-analysis of the deposited data

How the results depend on the processing

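The direction of the member counts was the same under all alternatives run, with far more members lower than higher in both pretreated comparisons. In pretreated H2O2 against H2O2, 22 to 24 members fell and 1 to 5 rose; the number that rose was 5 under either offset and 1 with limma on log2(FPKM + 1) or log2(FPKM + 0.1) at a mean of at least 1 FPKM, where Acacb was not tested. The same limma settings moved the share of calls that were higher over all genes to 37.7% and 37.6%, against 50.9%, and the median of all genes to -0.12 and -0.14; against control the share was 41.0%. In pretreated H2O2 against control, 8 members rose with a mean of at least 1 CPM, against 5. With that minimum Mecr and Agpat1 lost their lower call against H2O2, and Elovl1 against control. In H2O2 against control, coding transcript length offsets left 6 higher and 9 lower members, against 10 and 14.

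Where a change passed the test with or without the alternative, its sign turned only under the offsets; changes that passed in neither, such as those of Elovl5, also turned under other settings. In H2O2 against control these were Acss2 (0.19) and Hacd3 (-0.066) with exonic length, and Acaca (0.025), Fasn (0.14), Tecr (-0.049) and Hacd3 (-0.0026) with coding transcript length. In pretreated H2O2 against H2O2 they were Mecr (0.0082) with coding transcript length and Hacd3 (0.14 and 0.11) with either. The cause was not tested.

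Leaving out 1 library gave 2 to 3 higher and 23 to 24 lower members in pretreated H2O2 against H2O2, 5 to 7 and 23 in pretreated H2O2 against control, and 7 to 10 and 13 to 14 in H2O2 against control. Replicate numbers did not pair the libraries (same-numbered deviations correlated between -0.020 and 0.049); with a replicate block 2 members rose and 24 fell, 5 rose and 23 fell, and 9 rose and 13 fell in these comparisons. Depth limits Elovl2, Elovl3, Elovl7 and Acsl6, whose levels lie near the floor.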

Other observations

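Of 34 listed glycerolipid genes beyond the members, 30 were tested. In pretreated H2O2 against H2O2 cells 15 fell and 9 rose (median log2 fold change -0.15), beside 31.3% and 32.4% of all genes. Against control 14 fell and 8 rose (median -0.13), beside 29.5% and 33.7%. For H2O2 against control 5 fell and 7 rose (median 0.046), beside 24.1% and 24.6%. These counts are given as values, and some lie near or below the shares of all genes. Pcyt2, which makes CDP-ethanolamine for phosphatidylethanolamine, averaged 41.5 ± 0.370 CPM in pretreated H2O2 cells and 124 ± 3.44 CPM in H2O2 cells (log2 fold change -1.57, SE 0.030, edgeR adjusted p = 5.89e-13). Lipe, hormone-sensitive lipase, averaged 1.85 ± 0.424 CPM in pretreated H2O2 cells and 7.80 ± 0.538 CPM in H2O2 cells (log2 fold change -2.07, SE 0.16, edgeR adjusted p = 2.05e-07). Gpat3, which like Gpam starts glycerolipid synthesis but in the endoplasmic reticulum, was higher, with 17.5 ± 0.295 CPM in pretreated H2O2 cells and 7.28 ± 0.426 CPM in H2O2 cells (log2 fold change 1.27, SE 0.11, edgeR adjusted p = 5.15e-07). Plin4, a lipid droplet coat protein, was higher as well, with 7.17 ± 0.539 CPM in pretreated H2O2 cells and 2.00 ± 0.142 CPM in H2O2 cells (log2 fold change 1.84, SE 0.16, edgeR adjusted p = 4.59e-07). Gpd1, which makes glycerol-3-phosphate, was higher too, with 2.00 ± 0.694 CPM in pretreated H2O2 cells and 0.581 ± 0.0811 CPM in H2O2 cells (log2 fold change 1.78, SE 0.32, edgeR adjusted p = 0.000383). In control cells Pcyt2 averaged 99.1 ± 1.12 CPM and Lipe 8.62 ± 0.620 CPM. Control means of the other 3 were 8.14 ± 1.17 CPM for Gpat3, 3.03 ± 0.523 CPM for Plin4 and 0.333 ± 0.104 CPM for Gpd1.

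Markers of other cell types were low apart from those of fibroblasts. Summed levels of the 6 macrophage and leukocyte markers were 16.7 to 18.0 CPM in pretreated H2O2, 12.1 to 14.8 CPM in H2O2 and 9.64 to 10.7 CPM in control libraries, with Ptprc and Adgre1 at 0. Those of the 4 endothelial markers were 3.51 to 5.46 CPM in pretreated H2O2, 0.696 to 0.957 CPM in H2O2 and 0.114 to 0.50 CPM in control libraries, and those of the 4 Schwann cell and oligodendrocyte markers 0.429 to 1.77 CPM in pretreated H2O2, 0.350 to 0.531 CPM in H2O2 and 0.447 to 1.34 CPM in control libraries. The 12 organ of Corti markers summed to 50.9 to 53.3 CPM in pretreated H2O2, 41.9 to 43.0 CPM in H2O2 and 58.7 to 61.7 CPM in control libraries. Their part in the results was not tested.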
